A study of Mus musculus with 6 samples.

Results

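Matrix metalloproteinases (MMPs), ADAMTS proteases, ADAMTS-like proteins and tissue inhibitors of metalloproteinases (TIMPs) were followed across 6 mouse hearts. The genes were chosen by symbol, as every Mmp, Adamts, Adamtsl and Timp gene of the platform annotation with a family number and a probe set that names no other gene. This gave 49 of the 19938 named genes, made up of 22 MMP, 18 ADAMTS, 5 ADAMTS-like and 4 TIMP genes. Mmp15 and Adamts2 were not analysed here. Each gene was read from its probe set of highest mean.

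The study asked what loss of Id1 and Id3 in the vessels does to the adult heart, and what IGFBP3, which binds insulin-like growth factors outside the cell, does to the knockout heart. Id1 and Id3 encode helix-loop-helix proteins that hold E proteins away from DNA. RNA of each heart, at 6 months of age (postnatal day 180), was read on 1 Affymetrix Mouse Gene 1.0 ST array. The values are log2 expression levels. An Id conditional knockout (Id cKO) treated with mouse recombinant IGFbp3 and an untreated Id cKO form a pair that the design text calls incubated; dose, duration and vehicle are not stated. A further Id cKO heart carried Tie2Cre+Id1F/-Id3-/-, that is, Tie2Cre with a floxed and a null Id1 allele and no functional Id3. Of 2 Id control hearts, Id control 1 was Id1F/+Id3-/-, with no Cre named, and Id control 2 was Tie2Cre+Id1-/-Id3+/-. The remaining heart was wild type (WT). Tie2Cre acts in endothelial cells and in blood cells, so the floxed allele was not aimed at heart muscle. Both Id controls also lack Id alleles, and no group but Id control had more than 1 array. A difference between 2 lone arrays therefore has no check by replicates. The labels do not say that the samples came from separate animals, so the p-values rest on a spread between samples that may be technical.

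MMPs and ADAMTS proteases are zinc enzymes that cut collagens, proteoglycans and other proteins of the extracellular matrix. They are made as inactive precursors, and TIMPs block the active enzymes. In the heart they are known for the turnover of the matrix after injury and under load, and Timp4 is known as the TIMP most typical of heart muscle.

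The arrays of the incubated pair were deposited on a lower scale, with medians of 4.45 (treated) and 4.51 (untreated) against 5.73 to 5.83 on the other 4 arrays. Exactly equal values stood in 1586 probe sets of the pair and in no more than 32 for any other 2 arrays. Levels were therefore compared as deposited within each set of arrays, and across the sets only after quantile normalization. Values are as deposited unless normalization is named. Deposited values of the incubated pair are given for completeness and are not to be read against those of the other 4 arrays. Xist and Eif2s3y, markers of female and male tissue, gave a male pattern in the incubated pair and WT and a female one in Id cKO and both Id controls. In every comparison of Id cKO or Id control with WT, genotype and sex pattern therefore cannot be told apart. On the 4 arrays outside the incubated pair the targeted genes followed the labelled genotypes. Id1 was at 5.70 on both incubated arrays, 6.48 in Id cKO and 6.41 in Id control 2, against 8.10 in Id control 1 and 8.14 in WT. Id3 was at 4.13 and 3.86 in the treated and the untreated heart, 4.69 in Id cKO and 5.02 in Id control 1, against 7.32 in Id control 2 and 7.18 in WT. Markers of ventricular heart muscle averaged 13.26 in Id cKO, 13.36 and 13.31 in Id control 1 and 2 and 13.32 in WT. Markers of the atrium averaged 9.20 in Id control 2 and between 6.11 and 6.55 in Id cKO, Id control 1 and WT, and all 4 atrial genes compared were at least 2-fold lower in Id control 1 than in Id control 2. The labels carry 3 date codes, of which Id cKO, Id control 2 and WT share one.

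Genes were compared where the mean over the 6 normalized arrays was at least 6. Of the 49 members 21 passed and 28 did not. All 4 TIMPs passed, and none of the 4 collagenases and none of the 6 secreted MMPs outside the named subfamilies. Of the 21, Adamts4, Mmp3, Mmp17, Mmp23 and Timp1 passed through the Id cKO genotype arrays, since their means over the Id control and WT arrays were under 6. For these 5 genes the limit itself favoured a high level in the Id cKO genotype, so counts over the 21 members are descriptions and support nothing. The 28 genes under the limit had mean levels between 2.20 and 5.94. The heat map of all 49 genes shows both kinds.

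**Figure D1:**
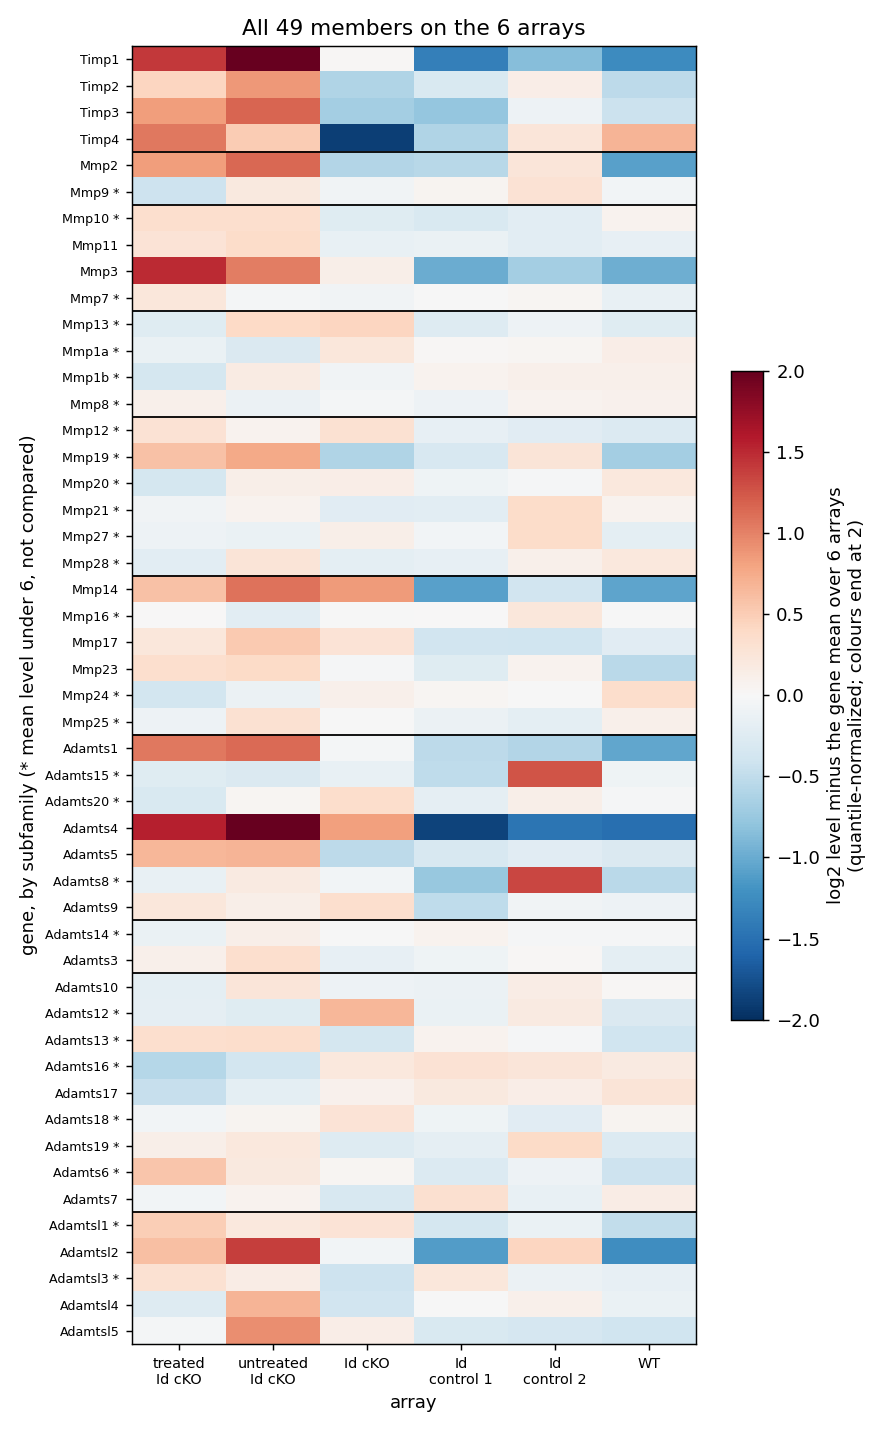
Level of each of the 49 genes (rows, by subfamily, separated by lines) on the 6 arrays (columns), as quantile-normalized log2 level minus the gene's mean over the arrays; colours end at 2 in either direction and an asterisk marks the 28 genes with a mean under 6. Adamts4, Timp1, Mmp3 and Mmp14 are higher on all 3 arrays of the Id cKO genotype than on the other 3, while Timp4 is lowest on the Id cKO array.

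Set against Id control, the Id cKO heart had more Adamts4 and Mmp14 RNA and less Timp4 RNA, each at least 2-fold from both Id control arrays. These were 3 of 21 members, where 1.07% of the 9602 genes compared met the same limit (0.656% higher, 0.417% lower). Against WT, 7 of 21 members were 2-fold apart, where 3.27% of genes were. Adamts1, Adamts4, Adamtsl2, Mmp14, Mmp3 and Timp1 were higher (2.3% of genes were) and Timp4 was lower (0.969%). The median difference of the 21 members was 0.04 against Id control, beside -0.04 for all genes compared, and 0.47 against WT, beside 0.02. Over all 49 members, with no limit on the level, the medians were 0.0044 against Id control, beside -0.00041 for all 19938 genes, and 0.02 against WT, beside -0.03. In bulk tissue, fewer cells of a type and less RNA per cell cannot be told apart.

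A limma fit over the 5 groups, in which the spread comes from the Id control pair alone, passed 0 of 21 members at an adjusted p of 0.05. This held for Id cKO against Id control, where 9 members and 14.3% of genes had an unadjusted p under 0.05 and 0.0208% of genes passed after adjustment. It also held for Id cKO against WT, where 8 members and 13.3% of genes had an unadjusted p under 0.05 and 0.0208% of genes passed. A second limma fit compared the 3 arrays of the Id cKO genotype with the 3 other arrays after quantile normalization, with the set of arrays as a block. In it the difference comes from the first 4 arrays, and the incubated pair adds to the estimate of spread alone. Adamts4 passed this fit and the other 20 members did not, where 0.573% of genes passed (0.417% higher, 0.156% lower), and 8 of 21 members had an unadjusted p under 0.05, where 9.79% of genes had one.

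**Figure D2:**
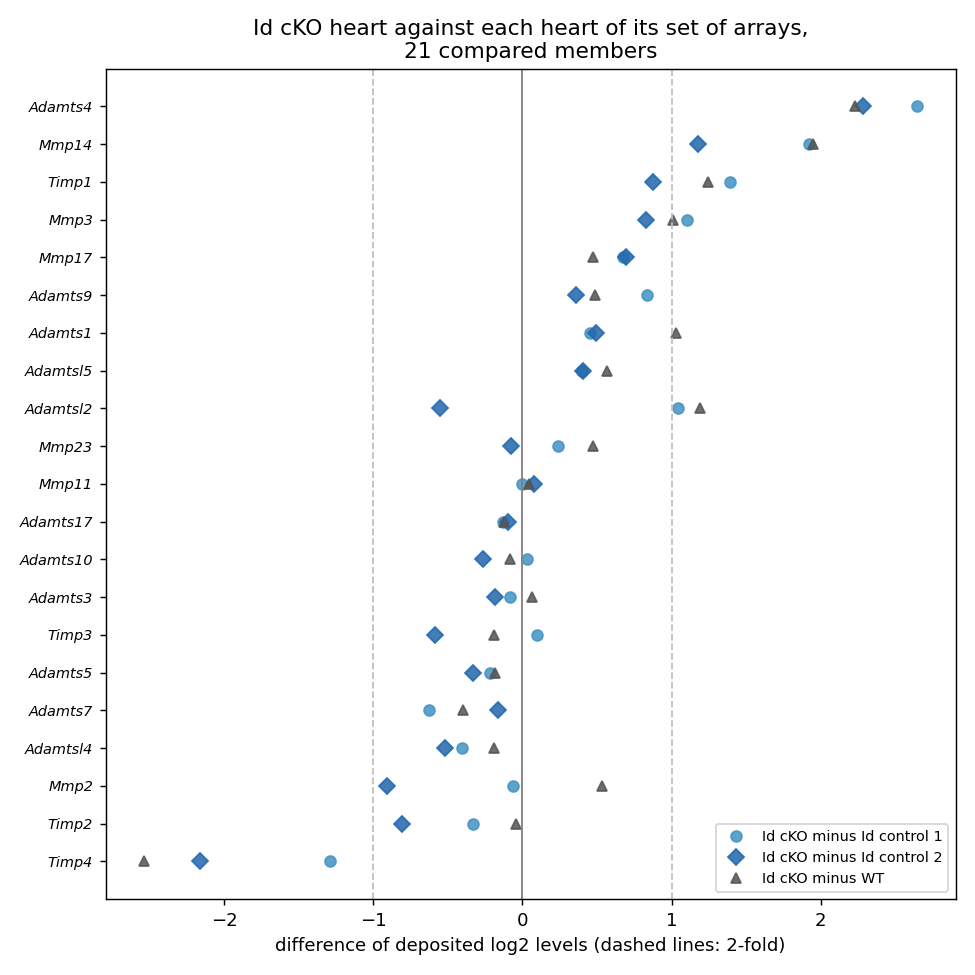
Difference of deposited log2 levels (x axis; dashed lines mark 2-fold) between the Id cKO heart and Id control 1 (circles), Id control 2 (diamonds) and WT (triangles) for the 21 compared members (y axis). Adamts4 and Mmp14 lie beyond the right line and Timp4 beyond the left one in all 3 differences, and Adamtsl2 lies on opposite sides of 0 against the 2 Id control arrays.

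Timp4 was the member furthest below its controls. Its deposited log2 level was 7.14 in Id cKO, against 8.43 and 9.30 in Id control 1 and 2 and 9.67 in WT. The Id cKO array was thus the lowest of its set, 3.31-fold below the Id control mean and 5.79-fold below WT. The difference from Id control was -1.73 ± 0.39 (limma SE, adjusted p = 0.230), and the block fit gave -1.99 ± 0.43 (limma, adjusted p = 0.1001). It passed in 2 of 12 settings, without Id control replicate 1 and with the date code as a block (-2.35 and limma adjusted p = 0.0184 in both). Id control 1 alone carries its date code, so these 2 settings are the same fit and not separate support. Without WT replicate 1 the adjusted p was 0.238 (limma), and with no block the difference was -0.21 (limma, adjusted p = 0.857). The incubated hearts, also of the Id cKO genotype, did not show the low level. Timp4 was at 8.88 in the treated and 8.27 in the untreated heart as deposited, and after normalization at 9.66 and 9.12, against 6.73 in Id cKO, 8.01 and 8.85 in the Id controls and 9.30 in WT. The incubated hearts thus lay within or above the range of the Id controls and WT. Male pattern, date code and incubation set these 2 hearts apart from the Id cKO heart and cannot be told apart. The 3 hearts of male pattern had 9.66, 9.12 and 9.30, against 6.73, 8.01 and 8.85 in the 3 of female pattern.

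Timp1, an inhibitor that injury and cytokines are known to induce, ran opposite to Timp4 in the Id cKO heart. It was at 7.47 in Id cKO, against 6.08 and 6.60 in Id control 1 and 2 and 6.23 in WT. The Id cKO array was the highest of its set, 1.39 and 0.88 above the 2 Id control arrays and 1.25 above WT. The block fit gave 1.18 ± 0.29 (limma, adjusted p = 0.150). The treated and untreated hearts had 7.68 and 8.24 as deposited, and 8.46 and 9.09 after normalization, against 5.68 to 6.19 in the Id controls and WT.

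Timp2 and Timp3, inhibitors made in many tissues, were not 2-fold apart between Id cKO and any array of its set. Timp2 was at 8.93 in Id cKO, against 9.26 and 9.73 in Id control 1 and 2 and 8.97 in WT, and at 8.77 and 9.14 in the treated and the untreated heart. Timp3, which binds to the matrix itself, was at 10.13 in Id cKO, against 10.04 and 10.72 in Id control 1 and 2 and 10.32 in WT, and at 10.51 and 10.78 in the treated and the untreated heart. For Timp3 the Id control arrays were further from each other (-0.68, Id control 1 minus 2) than Id cKO was from either of them (0.10 and -0.59). For Timp2 that difference was -0.48, and Id cKO was at -0.33 and -0.81. Each of Timp1, Timp3 and Timp4 lies inside a synapsin gene in the RefSeq table, Timp1 in Syn1 on chromosome X, Timp3 in Syn3 on chromosome 10 and Timp4 in Syn2 on chromosome 6. Signal from the host genes was not tested.

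The promoters of the TIMPs furthest apart in opposite directions are printed because the Id proteins act on factors that bind E boxes. The 300 bases run from 250 before to 50 after the start of the gene and are those of RefSeq on GRCm38.p6. The motifs searched were the E boxes CAGCTG and CAGGTG and the AP-1 motif TGANTCA, on both strands, and matches are in capitals. No match in the printed sequences overlapped another. CAGCTG was in 16.3% of the 32851 promoters of the table, CAGGTG in 20.2% and TGANTCA in 7.81%. Of the 49 members 34 had a promoter in the table, with 37 promoters in all, and each motif was in 8 of them. The Timp4 window holds CAGCTG once and the Timp1 window none of the 3 motifs.
Timp4 (chr6:115252156-115252455, - strand): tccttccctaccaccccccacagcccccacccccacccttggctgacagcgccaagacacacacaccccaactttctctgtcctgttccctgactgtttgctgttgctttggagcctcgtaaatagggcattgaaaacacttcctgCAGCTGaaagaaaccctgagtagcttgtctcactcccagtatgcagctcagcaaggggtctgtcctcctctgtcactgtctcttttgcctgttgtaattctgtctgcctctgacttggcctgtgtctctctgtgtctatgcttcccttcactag
Timp1 (chrX:20869916-20870215, + strand): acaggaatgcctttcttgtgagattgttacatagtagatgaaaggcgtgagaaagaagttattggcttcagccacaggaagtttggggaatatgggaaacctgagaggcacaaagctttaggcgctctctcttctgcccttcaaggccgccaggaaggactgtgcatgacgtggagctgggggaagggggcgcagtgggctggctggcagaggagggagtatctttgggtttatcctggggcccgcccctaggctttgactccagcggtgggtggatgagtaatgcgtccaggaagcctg

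Mmp14 encodes a membrane-bound MMP that cuts fibrillar collagen and activates the precursor of Mmp2. It was at 9.35 in Id cKO, against 7.43 and 8.17 in Id control 1 and 2 and 7.41 in WT. The Id cKO level lay above all 3 arrays, 2.93-fold above the Id control mean and 3.86-fold above WT. The difference from Id control was 1.55 ± 0.34 (limma SE, adjusted p = 0.223), and the block fit gave 1.69 ± 0.32 (limma, adjusted p = 0.0606). It passed in 2 of 12 settings, without Id control replicate 2 (1.92, limma adjusted p = 0.00694) and with no block. The adjusted p (limma) was 0.108 without Id control replicate 1 and 0.227 without WT replicate 1. The treated and untreated hearts had 7.90 and 8.33 as deposited and 8.68 and 9.19 after normalization, on either side of the 8.96 of Id cKO and above the 7.02, 7.73 and 7.05 of Id control 1, Id control 2 and WT. The Mmp14 promoter, shown as that of the MMP furthest above Id control, holds none of the 3 motifs.
Mmp14 (chr14:54431348-54431647, + strand): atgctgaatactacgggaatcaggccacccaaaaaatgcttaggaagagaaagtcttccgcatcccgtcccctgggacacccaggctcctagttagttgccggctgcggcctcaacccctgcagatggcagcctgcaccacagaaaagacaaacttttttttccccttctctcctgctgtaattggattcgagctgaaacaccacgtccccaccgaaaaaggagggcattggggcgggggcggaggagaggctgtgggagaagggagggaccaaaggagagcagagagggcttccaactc

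Mmp2, the gelatinase that Mmp14 activates, was not raised with it in the Id cKO heart. It was at 8.96 in Id cKO, against 9.02 and 9.86 in Id control 1 and 2 and 8.42 in WT. Id cKO was 0.07 below Id control 1, 0.91 below Id control 2 and 0.53 above WT, so its level lay inside the range of the other hearts. The incubated hearts, also of the Id cKO genotype, had 9.21 (treated) and 9.48 (untreated) as deposited, and 10.00 and 10.31 after normalization. These normalized levels were above the 8.57 of Id cKO. They were also above the 8.60, 9.41 and 8.07 of Id control 1, Id control 2 and WT. The other gelatinase, Mmp9, was under the limit, with 5.64 in Id cKO, 5.74 and 5.95 in the Id controls and 5.72 in WT, and 3.94 and 4.65 in the treated and the untreated heart.

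Among the other membrane-type MMPs, Mmp17, which is held in the membrane by a lipid anchor, was at 6.71 in Id cKO, against 6.03 and 6.01 in Id control 1 and 2 and 6.23 in WT. Id cKO was the highest of the set and under 2-fold from each array, and the block fit gave 0.61 ± 0.20 (limma, adjusted p = 0.290). Mmp23 was at 6.58 in Id cKO, against 6.34 and 6.65 in Id control 1 and 2 and 6.10 in WT, inside the range of the other hearts. The treated and untreated hearts had 5.43 and 5.73 for Mmp17 and 5.71 and 5.74 for Mmp23. Mmp16, Mmp24 and Mmp25 were under the limit.

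Mmp3, the stromelysin that cuts proteoglycans, fibronectin and other MMP precursors, was higher in Id cKO. It was at 6.64 in Id cKO, against 5.54 and 5.82 in Id control 1 and 2 and 5.63 in WT. These are differences of 1.10, 0.83 and 1.01, with the Id cKO array above the other 3, and the block fit gave 1.00 ± 0.24 (limma, adjusted p = 0.138). The treated and untreated hearts had 6.82 and 6.31 as deposited and 7.60 and 7.13 after normalization, against 5.12 to 5.43 in the Id controls and WT. Mmp11, a stromelysin by name, was level across the first set, with 6.81 in Id cKO, 6.82 and 6.74 in the Id controls and 6.77 in WT, and had 6.03 and 6.10 in the treated and the untreated heart.

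In the RefSeq table Mmp3 lies on chromosome 9 in a run of 10 members with no other protein-coding gene between them, in the order Mmp13, Mmp12, Mmp1b, Mmp3, Mmp1a, Mmp10, Mmp8, Mmp27, Mmp20, Mmp7. Of these 10 genes Mmp3 alone passed the limit. Mmp13, a collagenase, was at 5.59 in Id cKO, against 4.90 and 5.01 in Id control 1 and 2 and 5.001 in WT, and at 3.56 and 4.28 in the treated and the untreated heart. Mmp8, the collagenase of neutrophils, was at 3.88 in Id cKO, against 3.77 and 3.89 in Id control 1 and 2 and 4.03 in WT, and at 2.81 and 2.63 in the treated and the untreated heart. Both were under the limit, as were all 8 neutrophil markers listed. Outside the run, Mmp19 was at 5.69 in Id cKO, 5.94 and 6.52 in the Id controls and 5.67 in WT, and at 5.65 and 5.80 in the treated and the untreated heart. Mmp28 was at 6.05 in Id cKO, 6.05 and 6.32 in the Id controls and 6.44 in WT, and at 4.73 and 5.27 in the treated and the untreated heart.

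The promoters of the run share a sequence feature that the choice of genes did not use. TGANTCA, the motif of AP-1, which is known to drive MMP genes, was found in 8 of the 12 promoters of these 10 genes, and in 0 of the 25 other promoters of members. The sites are shown with 7 bases on either side and were picked after the search. The first base of the motif lay between 95 and 35 bases before the start of the gene. A match is a description of the letters, and 7 of these 8 genes were under the limit in these hearts.
Mmp13 (chr9:7272472-7272492, + strand): aaagtggTGACTCAtcactat
Mmp12 (chr9:7347323-7347343, + strand): tcaacagTGAGTCAgatagag
Mmp1b (chr9:7388106-7388126, - strand): caaagccTGAGTCAtatagcc
Mmp3 (chr9:7445769-7445789, + strand): gcaattaTGAGTCAgttttcg
Mmp1a (chr9:7464061-7464081, + strand): tcaaccaTGAGTCAcatagcc
Mmp10 (chr9:7502272-7502292, + strand): acccatgTGAGTCAtgcttag
Mmp20 (chr9:7628129-7628149, + strand): tgagacaTGAATCAtcactta
Mmp7 (chr9:7692020-7692040, + strand): gtgcaaaTGAGTCAcctattt

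Among the ADAMTS proteases that cut aggrecan, versican and related proteoglycans, Adamts4 was higher in every Id cKO heart. It was at 7.98 in Id cKO, against 5.34 and 5.70 in Id control 1 and 2 and 5.75 in WT, so the Id cKO array stood more than 2 log2 units above a group of 3 close values. The fold was 5.51 against the Id control mean and 4.70 against WT, with a difference from Id control of 2.46 ± 0.20 (limma SE, adjusted p = 0.101). The treated and untreated hearts had 7.55 and 8.36 as deposited, and 8.33 and 9.21 after normalization, against 7.59 in Id cKO and 4.91, 5.31 and 5.26 in Id control 1, Id control 2 and WT. The groups did not overlap. Adamts4 rose in the block fit by 2.43 ± 0.32, or 5.39-fold (limma, adjusted p = 0.0156). Its levels in the Id controls and WT were under the limit of 6 and below the array medians, so it was admitted through the arrays on which it was high, and the folds rest on low levels in these 3 hearts. With no limit on the level it had an adjusted p of 0.0181 (limma, 19938 genes). Over the 12 settings of that fit the difference lay between 2.30 and 3.22 and passed in 11, and without WT replicate 1 it was 2.48 with an adjusted p of 0.0838 (limma). The 12 settings are not all distinct. The date block repeats the fit without Id control replicate 1, and leaving out either incubated array gives the same result.

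Adamts1 and Adamts9, which cut versican, and Adamts5, an aggrecanase, lay closer to the controls. Adamts1 was at 8.75 in Id cKO, against 8.30 and 8.26 in Id control 1 and 2 and 7.72 in WT, and at 8.66 on both incubated arrays. It was 2-fold above WT (1.03) and 0.45 and 0.49 above the Id controls, which were themselves 0.58 and 0.54 above WT. Normalized Adamts1 levels were 9.46 and 9.53 in the treated and the untreated heart, against 8.36 in Id cKO. Adamts9 was at 9.34 in Id cKO, against 8.51 and 8.98 in Id control 1 and 2 and 8.85 in WT, and at 8.03 and 7.89 in the treated and the untreated heart. Its 6 probe sets gave differences from Id control between 0.53 and 1.14, and from WT between 0.49 and 1.71, so the probe set that stands for the gene was at or near the low end of both. Normalized Adamts9 levels were 8.83 and 8.73 in the treated and the untreated heart, 8.94 in Id cKO and 8.09 to 8.53 elsewhere. Adamts5 was at 7.80 in Id cKO, against 8.01 and 8.13 in Id control 1 and 2 and 7.98 in WT, and at 7.80 and 7.77 in the treated and the untreated heart. Its Id cKO level was the lowest of the set, with differences of -0.22 and -0.33 from the Id controls and -0.18 from WT. Normalized Adamts5 levels were 8.59 and 8.60 in the treated and the untreated heart, against 7.40 in Id cKO.

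Adamts8 and Adamts15, neighbours on chromosome 9, did not pass the limit and stood out in Id control 2. Adamts8 was at 6.18 in Id cKO, against 5.47 and 7.58 in Id control 1 and 2 and 5.77 in WT. Adamts15 was at 6.21 in Id cKO, against 5.84 and 7.64 in Id control 1 and 2 and 6.29 in WT. Both were named after their values were seen, and both were high on the array that also had high atrial genes. The part of the atrial genes was not tested.

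Adamts3, which trims procollagen, was at 7.01 in Id cKO, against 7.09 and 7.19 in Id control 1 and 2 and 6.94 in WT, and at 6.08 and 6.27 in the treated and the untreated heart. Its 16 probe sets gave differences from Id control between -0.83 and -0.02. Adamts17 was at 7.67 in Id cKO, against 7.80 and 7.77 in Id control 1 and 2 and 7.80 in WT, and at 5.93 and 6.18 in the treated and the untreated heart. Its 5 probe sets ran between -0.11 and 0.67 against Id control, so they did not share a direction. Adamts10, which binds fibrillin microfibrils, was at 7.10 in Id cKO, against 7.07 and 7.36 in Id control 1 and 2 and 7.18 in WT, and at 5.79 and 6.20 in the treated and the untreated heart. Adamts14, a relative of Adamts3, was under the limit, with 5.68 in Id cKO, 5.73 and 5.62 in the Id controls and 5.73 in WT, and 4.24 and 4.55 in the treated and the untreated heart. The largest difference of Id cKO among these 4 genes was -0.27, for Adamts10 against Id control 2. Adamts7 and Adamts12 were further apart and are named after their values were seen. Adamts7, which cuts the matrix protein Comp, was at 6.86 in Id cKO, against 7.48 and 7.02 in Id control 1 and 2 and 7.26 in WT, the lowest of the set (limma block fit -0.43 ± 0.22, adjusted p = 0.635). Adamts12, under the limit, was at 6.79 in Id cKO, against 5.99 and 6.30 in Id control 1 and 2 and 5.91 in WT, the highest of the set.

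ADAMTS-like proteins resemble the non-catalytic part of ADAMTS and sit on fibrillin microfibrils without cutting. Adamtsl2 was at 8.19 in Id cKO, against 7.15 and 8.75 in Id control 1 and 2 and 7.00 in WT, and at 7.69 and 8.39 in the treated and the untreated heart. Id cKO was 2-fold above WT (1.19) and Id control 1 (1.04) and 0.55 below Id control 2, and the difference from Id control of 0.25 ± 0.68 (limma, adjusted p = 0.909) was within the spread of that pair. Adamtsl4 was at 7.92 in Id cKO, against 8.33 and 8.44 in Id control 1 and 2 and 8.12 in WT, and at 6.86 and 7.76 in the treated and the untreated heart. Adamtsl5 was at 8.93 in Id cKO, against 8.53 on both Id control arrays and 8.36 in WT, and at 7.60 and 8.49 in the treated and the untreated heart. Id cKO thus had the lowest Adamtsl4 and the highest Adamtsl5 level of its set, each under 2-fold from every array.

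Across both sets after normalization, 9 of 21 members had their 3 Id cKO genotype arrays clear of the other 3, where 31.3% of genes did. Adamts1, Adamts4, Adamts9, Adamtsl5, Mmp14, Mmp17, Mmp3 and Timp1 were higher (13.7% of genes) and Adamts17 was lower (17.7%). Adamts4, Mmp3, Mmp17 and Timp1 are among the genes that passed the limit through the Id cKO genotype arrays. With 3 arrays against 3, an exact permutation test cannot go below a p of 0.1, so no test was made. The high share over all genes stands beside the design, in which 2 of the 3 Id cKO genotype arrays form the second set, and the set and the genotype cannot be told apart in this count.

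**Figure D3:**
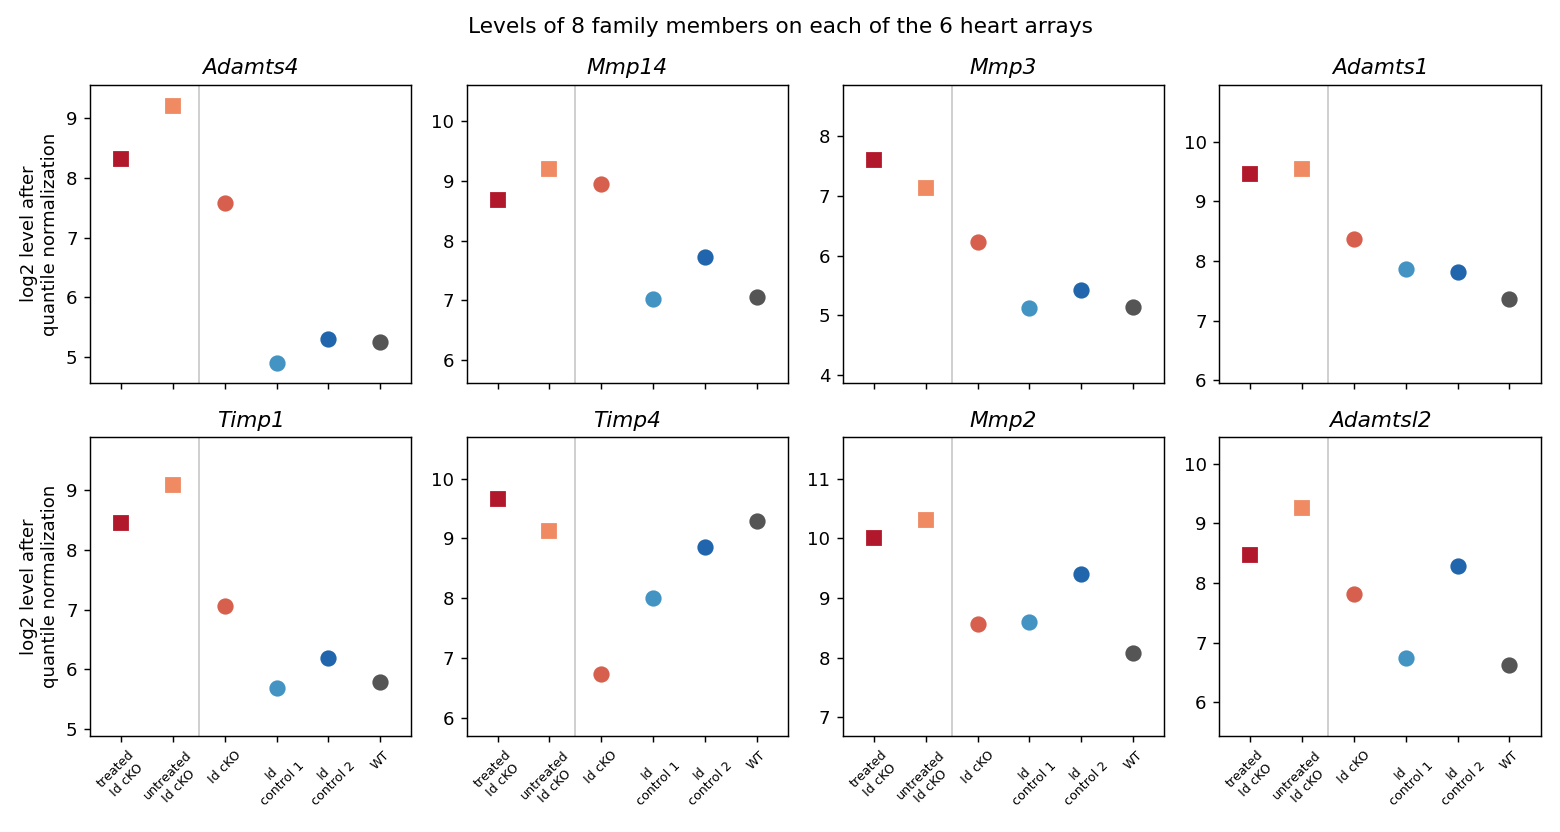
Quantile-normalized log2 level (y axis) of 8 members on each array (x axis: treated Id cKO, untreated Id cKO, Id cKO, Id control 1, Id control 2, WT); squares are the incubated pair, circles the other 4 arrays, and the line parts the 2 sets. Adamts4 lies between 7.59 and 9.21 on the Id cKO genotype arrays and between 4.91 and 5.31 on the others, while Timp4 is at 6.73 in Id cKO and at 9.66 and 9.12 on the incubated pair.

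The incubated Id cKO hearts differed from the Id cKO heart in the inhibitors. After normalization all 4 TIMPs, Mmp2, Adamts1 and Adamts5 were at least 2-fold higher on both incubated arrays, 7 of 21 members, where 2.45% of genes were, and 0 members were 2-fold lower, where 0.729% were (3.18% of genes in either direction). Timp4 was 2.93 and 2.39 above Id cKO in the treated and the untreated heart. Timp3 was 1.51 and 1.83 above it. Timp1 was 1.39 and 2.03 above it, and Timp2 1.03 and 1.47. The 21 members had a median of 0.59, beside -0.04 for all genes compared, and all 49 members 0.15, beside -0.04 for all genes. Set of arrays, date code, incubation and sex pattern all part these arrays and cannot be told apart. Fibroblast markers averaged 9.67 and 9.72 in the treated and the untreated heart, against 8.88 in Id cKO, and macrophage markers 7.56 and 7.70, against 6.54. Red cell and platelet markers averaged 7.56 and 7.16 in the treated and the untreated heart, against 5.71 in Id cKO, with all 3 compared genes 2-fold higher on both incubated arrays. Ventricular markers averaged 12.70 and 12.59, against 13.05 in Id cKO. Their part in the result was not tested.

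IGFbp3 treatment was compared within the incubated pair, 1 array against 1. No member was 2-fold apart, where 0.531% of genes were higher and 0.656% lower. Of the 21 members 16 were lower in the treated heart, 4 were higher and Adamts1 was exactly equal, with a median of -0.27 beside 0.03 for all genes compared. Over all 49 members the median was -0.19, beside -0.04. The members furthest down were Adamtsl4 (-0.90), Adamtsl5 (-0.89), Adamts4 (-0.81) and Adamtsl2 (-0.71). Timp1 was at -0.56 and Mmp14 at -0.43, both also above Id control and WT in the Id cKO heart. Timp4 was 0.61 and Mmp3 0.50 higher in the treated heart. In the 5-group limma fit 0 members passed, where 0% of genes did, and 3 had an unadjusted p under 0.05, where 21.4% of genes had one. The adjusted p was 0.202 for Adamtsl4 and Adamtsl5 and 0.204 for Adamts4 (limma). The Id control arrays, set against each other in the plot beside the treatment, had a median difference of -0.29 over the same genes, of about the same size.

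**Figure D4:**
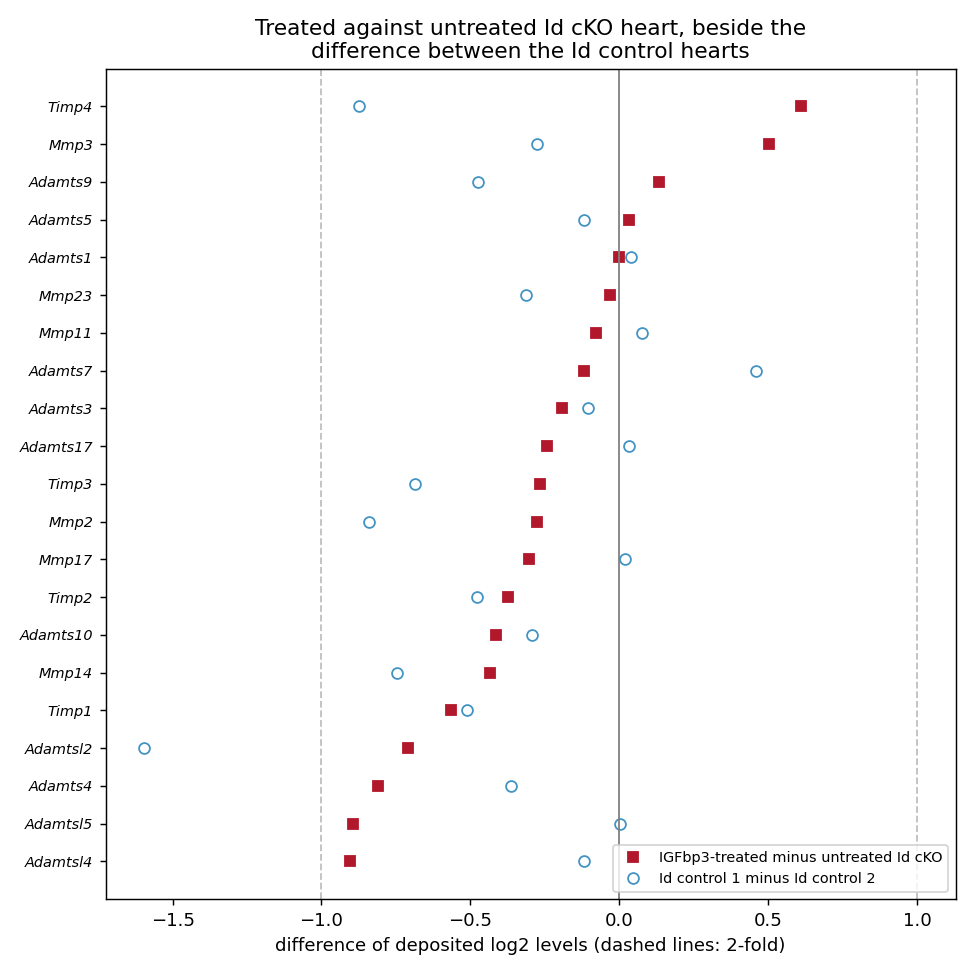
Difference of deposited log2 levels (x axis; dashed lines mark 2-fold) between the treated and untreated Id cKO hearts (filled squares) and between Id control 1 and Id control 2 (open circles) for the 21 compared members (y axis). No square lies beyond a dashed line, 16 lie left of 0, and the Adamtsl2 circle at -1.59 lies beyond the left line.

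Id control was also set against WT. In this comparison 0 of 21 members were 2-fold apart on both Id control arrays, where 0.167% of genes were (0.104% higher, 0.0625% lower). In limma 0 members passed, where 0% of genes did, and 2 had an unadjusted p under 0.05, where 7.33% of genes had one. Id control 2 alone gave Mmp2 (1.44 above WT) and Adamtsl2 (1.74), and Id control 1 alone gave Timp4 (-1.24). Between the Id control hearts themselves Adamtsl2 was 2-fold apart, at -1.59 in Id control 1 minus Id control 2, where 0.844% of genes were lower and 0.146% higher. Timp4 (-0.87), Mmp2 (-0.84), Mmp14 (-0.74) and Timp3 (-0.68) followed, all lower in Id control 1. Fibroblast markers averaged 8.80 in Id control 1 and 9.61 in Id control 2, and 4 of the 9 were 2-fold lower in Id control 1. Atrial markers averaged 6.12 and 9.20 in Id control 1 and 2, and adipocyte markers 5.89 and 6.93. Not all lists ran this way, with endothelial markers at 9.16 and 9.14. The part of these cell types in these differences was not tested.

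Genes that activate, bind or work beside these proteases were read from a list of 35, of which 33 were on the array and 23 passed the limit. Of these 23 genes Plau alone was 2-fold above both Id control arrays, where 0.656% of all genes compared were, and 0 were 2-fold below them, where 0.417% were. Against WT 6 were higher, where 2.3% of genes were, and 0 lower, where 0.969% were. Plau, the urokinase that makes plasmin, was at 8.71 in Id cKO, against 6.98 and 7.01 in Id control 1 and 2 and 6.49 in WT, and rose in the block fit by 1.91 ± 0.25 (limma, adjusted p = 0.0149). Plat, the tissue activator of plasminogen, was at 8.41 in Id cKO, against 7.39 and 7.75 in Id control 1 and 2 and 7.04 in WT. Thbs1, a thrombospondin, was at 8.97 in Id cKO, against 7.01 and 8.22 in Id control 1 and 2 and 7.55 in WT. Adam19, a membrane protease of a related family, was at 8.26 in Id cKO, against 6.99 and 7.54 in Id control 1 and 2 and 7.06 in WT. All 4 genes were highest in Id cKO within the set, but they were picked from the 23 for their large differences. Other partners were lower, with Pcsk6 and Pcolce2 both at -0.59 in Id cKO minus the Id control mean. Tll1, under the limit, was at 1.52 in the same difference.

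Of 24 listed substrates 23 were on the array and 19 passed the limit. Nid2 and Col4a1, parts of the basement membrane, were 2-fold above both Id control arrays, where 0.656% of genes were, and 11 substrates were 2-fold above WT, where 2.3% of genes were. In both comparisons 0 were 2-fold lower, where 0.417% and 0.969% of genes were. Nid2 was at 8.996 in Id cKO, against 7.66 and 7.90 in Id control 1 and 2 and 7.27 in WT, and Col4a1 at 10.70, against 9.19 and 9.62 in Id control 1 and 2 and 9.14 in WT. Both rose in the block fit (limma, adjusted p = 0.0473 and 0.0481). Fn1, fibronectin, was at 9.96 in Id cKO, against 8.39 and 9.16 in Id control 1 and 2 and 7.98 in WT. Col1a1 was at 10.50 in Id cKO, against 9.30 and 10.49 in Id control 1 and 2 and 8.74 in WT, so Id control 2 was level with Id cKO. Between the Id control arrays 6 of the 19 substrates were 2-fold lower in Id control 1, where 0.844% of genes were.

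Cell type markers differed between the same hearts. Fibroblast markers averaged 9.28 in Id cKO, against 8.80 and 9.61 in Id control 1 and 2 and 8.27 in WT, with Postn at 10.55, against 7.67 and 8.83 in Id control 1 and 2 and 7.11 in WT. Of the 9 fibroblast markers 5 were 2-fold above WT in Id cKO and 1 was 2-fold above both Id controls. Pdgfra and Tcf21, on the same list, were instead lowest in Id cKO within the set. Pdgfra was at 7.88 in Id cKO, against 8.40 and 9.20 in Id control 1 and 2 and 8.27 in WT. Tcf21 was at 6.50 in Id cKO, against 6.91 and 7.46 in Id control 1 and 2 and 6.59 in WT. Endothelial markers averaged 9.69 in Id cKO, against 9.16 and 9.14 in Id control 1 and 2 and 9.06 in WT. Macrophage markers averaged 6.96 in Id cKO, against 7.38 and 7.38 in Id control 1 and 2 and 7.16 in WT, with Cd163 at 5.84, against 7.28 and 7.62 in Id control 1 and 2 and 7.58 in WT. Cd163 fell in the block fit, to which the incubated pair adds an estimate of spread alone. The incubated hearts, also of the Id cKO genotype, did not show the low level. Normalized Cd163 levels were 7.31 and 7.11 in the treated and the untreated heart, against 5.41 in Id cKO. They were 6.87 and 7.18 in Id control 1 and 2 and 7.22 in WT. Single markers did not all follow their list. Adgre1, a macrophage marker, was at 7.09 in Id cKO, against 7.01 and 6.86 in Id control 1 and 2 and 6.48 in WT, and Tek, an endothelial marker, was at 8.98 in Id cKO, against 8.96 and 9.11 in Id control 1 and 2 and 8.73 in WT. Smooth muscle and pericyte markers did not share a direction. Acta2 was at 10.09 in Id cKO, against 11.10 and 11.33 in Id control 1 and 2 and 9.81 in WT. Pdgfrb was at 9.70 in Id cKO, against 9.02 and 9.23 in Id control 1 and 2 and 8.78 in WT. Kit, the 1 mast cell marker compared, was at 7.67 in Id cKO, against 6.52 and 5.88 in Id control 1 and 2 and 6.19 in WT. The other mast cell markers listed were under the limit and did not show the rise of Kit. In Id cKO minus the Id control mean, Kit was at 1.47. Cpa3 was at -0.46, Tpsb2 at -0.18, Cma1 at -0.08, Ms4a2 at 0.09 and Mcpt4 at 0.15 in the same difference. The part of these cell types in the results was not tested.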

How the data were processed

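Gene expression was measured in 6 hearts on Affymetrix Mouse Gene 1.0 ST arrays from 300 ng of total RNA each. The deposited values are log2 levels that the authors made with Affymetrix Expression Console and RMA, per the submitters' processing notes; no versions are named. Of 35557 probe sets, 21789 carried 1 gene symbol in the platform annotation, 1621 several and 12147 none, which left 19938 genes. All 49 members matched RefSeq by Entrez identifier.

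Calls by size used a limit of 2-fold, from both Id control arrays where that group was involved. limma 3.58.1 (R 4.3.3) was fitted on all 9602 genes with a mean of at least 6, with Benjamini-Hochberg adjusted p under 0.05 as the limit, in 5 groups on deposited values (1 residual degree of freedom; lone arrays were assumed to vary like the Id control pair) and by genotype on quantile-normalized values (3 residual degrees of freedom). Both fits were run on simulated data with independent noise of the same spread on every array and a uniform shift of the second set. Such data cannot check whether lone arrays vary like the Id control pair, so they lend no weight to the p-values. Alternatives were the scaling, the floor, the probe set rule, the block and leaving out arrays. Comparisons share arrays, so their results are not independent. The number of arrays limits the precision.

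Values per array are given for every TIMP, every member 2-fold apart or passing limma, and the 2 members of highest mean in each subfamily, and for 4 partners and 4 substrates of largest difference. Members and lists were chosen with earlier results of these data known. A planned search for motifs in the proteins was not run.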

Additional observations from a re-analysis of the deposited data

How the results depend on the processing

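No paired analysis was possible because the labels give no replicate numbers. Of the counts of members, 60 values under alternatives stayed within 1.5 times the reported one and 10 did not. Many of the 60 were counts of 0 that stayed at 0, among them all those of the 5-group limma fit. These have no direction, and among the others no direction reversed. Without Id control replicate 1 or 2, Id cKO against Id control gave 3 to 6 members (Adamtsl2, Mmp3 and Timp1 joined without replicate 2), with 226 and 242 genes in all against 103 reported. Id control against WT gave 1 to 2 members against 0, with 151 genes without replicate 1 and 45 without replicate 2, against 16. Id control 1 against 2 gave 3 members, Adamts8 and Adamts15 added, against 1, both with no floor (154 genes against 95) and with the floor on the higher group. The block fit gave 2 members, against 1, with the date code as a block (Timp4 added), also 2 without Id control replicate 1 (Timp4 added) or replicate 2 (Mmp14 added). With no block it gave 6, all higher (417 genes against 55). There the incubated arrays, with Timp4 at 9.66 and 9.12, enter the genotype mean, and the Timp4 difference was -0.21. Why Timp4 was high on these arrays was not tested. Without Id control replicate 2 the block fit called 106 genes, without the treated or the untreated array 20 each, and without WT replicate 1, a setting chosen after seeing the data, 10 genes and 0 members. With no floor, the genes in all were 178 against 114 for the treatment, 5111 against 3008 for arrays not overlapping and 550 against 305 for incubated against Id cKO. limma for Id cKO against WT called 4 genes with no floor or the floor on the higher group and 0 with averaged probe sets, against 2, and for Id control against WT 1 with no floor, against 0. Leaving out an Id control leaves the 5-group fit no residual degrees of freedom, so it gave no test. Of single members in the block fit, 79 values stayed on their side of the limit, 8 passed that had not, and 1, Adamts4 without WT, no longer passed. These values include repeats. The date block is the same fit as leaving out Id control replicate 1, and leaving out the treated or the untreated array gives the same result.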
